A study of Mus musculus with 8 samples.

Results

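The noncoding RNAs described here are 9 nuclear-encoded structural RNAs of more than 100 bases: *Rn7sk* (7SK RNA), *Rn7s1* and *Rn7s2* (7SL RNA), *Rmrp* (RNase MRP RNA), *Rpph1* (RNase P RNA), *Terc* (telomerase RNA), *Rny1* and *Rny3* (Y RNAs) and *Vaultrc5* (vault RNA). They were chosen by symbol, with no use of their levels, and all 9 were listed among the 47628 rows that name a gene. The question was whether short structured RNAs made in the nucleus differed between genotypes. The libraries came from whole cochleae of 4 wild-type (WT) mice and 4 *Opa1*+/- mice, which are heterozygous for the *Opa1* delTTAG knock-in allele in all tissues. By the methods of the study, the mice were killed at p21, had a background mixed from C57BL/6 J and 129 Sv/Pas, and the WT mice were littermates of the mutants. The mice received no treatment. Libraries are named as in the labels, WT_4, WT_5, WT_6 and WT_8 for WT mice, and Het_2, Het_7, Het_484 and Het_491 for *Opa1*+/- mice. Whole cochlear tissue holds many cell types, so fewer cells of a type and less RNA per cell cannot be told apart.

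Each of these RNAs works together with proteins in a ribonucleoprotein. 7SK RNA holds the elongation factor P-TEFb in an inactive form, 7SL RNA is the scaffold of the signal recognition particle that brings ribosomes to the endoplasmic reticulum, RNase MRP processes precursor ribosomal RNA, and RNase P trims precursor tRNA. Telomerase RNA carries the template for telomere repeats, Y RNAs bind the Ro60 protein, and vault RNA sits in the vault particle. All but telomerase RNA are made by RNA polymerase III. In most cells 7SL and 7SK are among the most plentiful noncoding RNAs after ribosomal RNA and tRNA.

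The sequence of 7SK RNA is shown first, because copies in the genome limit how its counts can be read. The sequences shown are GENCODE vM21 transcripts on GRCm38, written 5′ to 3′ as DNA. For *Rn7sk* (chr9:78175303-78175633, minus strand) the first 300 of 331 bases are given. The capitals mark the run of 241 bases, from base 1, that is also present without a mismatch in the annotated gene *Gm24447* on another chromosome.
Rn7sk: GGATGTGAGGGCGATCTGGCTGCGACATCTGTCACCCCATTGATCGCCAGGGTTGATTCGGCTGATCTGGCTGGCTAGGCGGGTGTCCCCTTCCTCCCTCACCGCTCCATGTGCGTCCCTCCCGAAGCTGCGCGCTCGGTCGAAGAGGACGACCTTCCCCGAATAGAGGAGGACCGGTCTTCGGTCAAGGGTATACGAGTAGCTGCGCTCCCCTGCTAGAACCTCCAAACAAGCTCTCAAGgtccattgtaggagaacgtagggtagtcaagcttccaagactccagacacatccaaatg

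The pair of Y RNAs is shown because, unlike 7SK, they share no stretch of 80 bases with each other or with another annotated transcript. *Rny1* (chr6:47788069-47788180, minus strand) and *Rny3* (chr6:47781624-47781725, plus strand) were 71.4% identical over 112 aligned positions. The capitals mark the shared runs of at least 8 bases, of which the longest has 12.
Rny1: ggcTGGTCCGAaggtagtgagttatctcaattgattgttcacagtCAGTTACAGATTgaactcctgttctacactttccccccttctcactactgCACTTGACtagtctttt
Rny3: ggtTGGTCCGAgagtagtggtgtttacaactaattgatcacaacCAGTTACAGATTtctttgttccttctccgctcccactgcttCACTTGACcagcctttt

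Both Y RNAs end in the run of T at which RNA polymerase III stops, written TTTT, as does *Vaultrc5*; the other 6 annotated sequences do not end in it.

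The libraries held between 15978051 and 20828030 counts on named genes. *Opa1*, the gene carrying the mutation, lay between 112 and 126 CPM (counts scaled to a common library size) in WT and between 60.4 and 70 CPM in *Opa1*+/- mice (log2 fold change -0.87, edgeR adjusted p = 0.00515). No marker of hair cells, spiral ganglion neurons or stria vascularis was at 0 in any library. Summed erythroid markers ranged from 7741 to 21435 CPM in WT and from 15050 to 25040 CPM in *Opa1*+/- libraries, and all 8 measured markers were higher in the mutant without passing the test; the part of blood RNA in the values below was not tested.

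The RNAs were not abundant in these libraries. Together they took between 0.00221% and 0.0034% of the counts of a library, that is 369 to 543 counts, with each 7SL row counted. Only *Rn7sk*, *Rn7s1* and *Rn7s2* passed the filter of a mean normalised count over 10, and 6 of the 9 did not. Of the 19366 genes tested, 57% had a higher mean CPM than *Rn7s1*, and 86.9% had a higher one than *Rn7sk*. Per length, the mean level over the 8 libraries was 37.3 CPM per kb for *Rn7s1*, 37.4 for *Rn7s2*, 5 for *Rny3*, 4.88 for *Rn7sk* and 4.56 for *Rny1*. The remaining genes lay lower on this scale, with 0.626 CPM per kb for *Rpph1*, 0.411 for *Rmrp*, 0.318 for *Vaultrc5* and 0.0175 for *Terc*. The libraries were made with the CORALL kit from total RNA, and the sources used here do not say whether ribosomal RNA was depleted or poly(A) RNA selected.

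**Figure D1:**
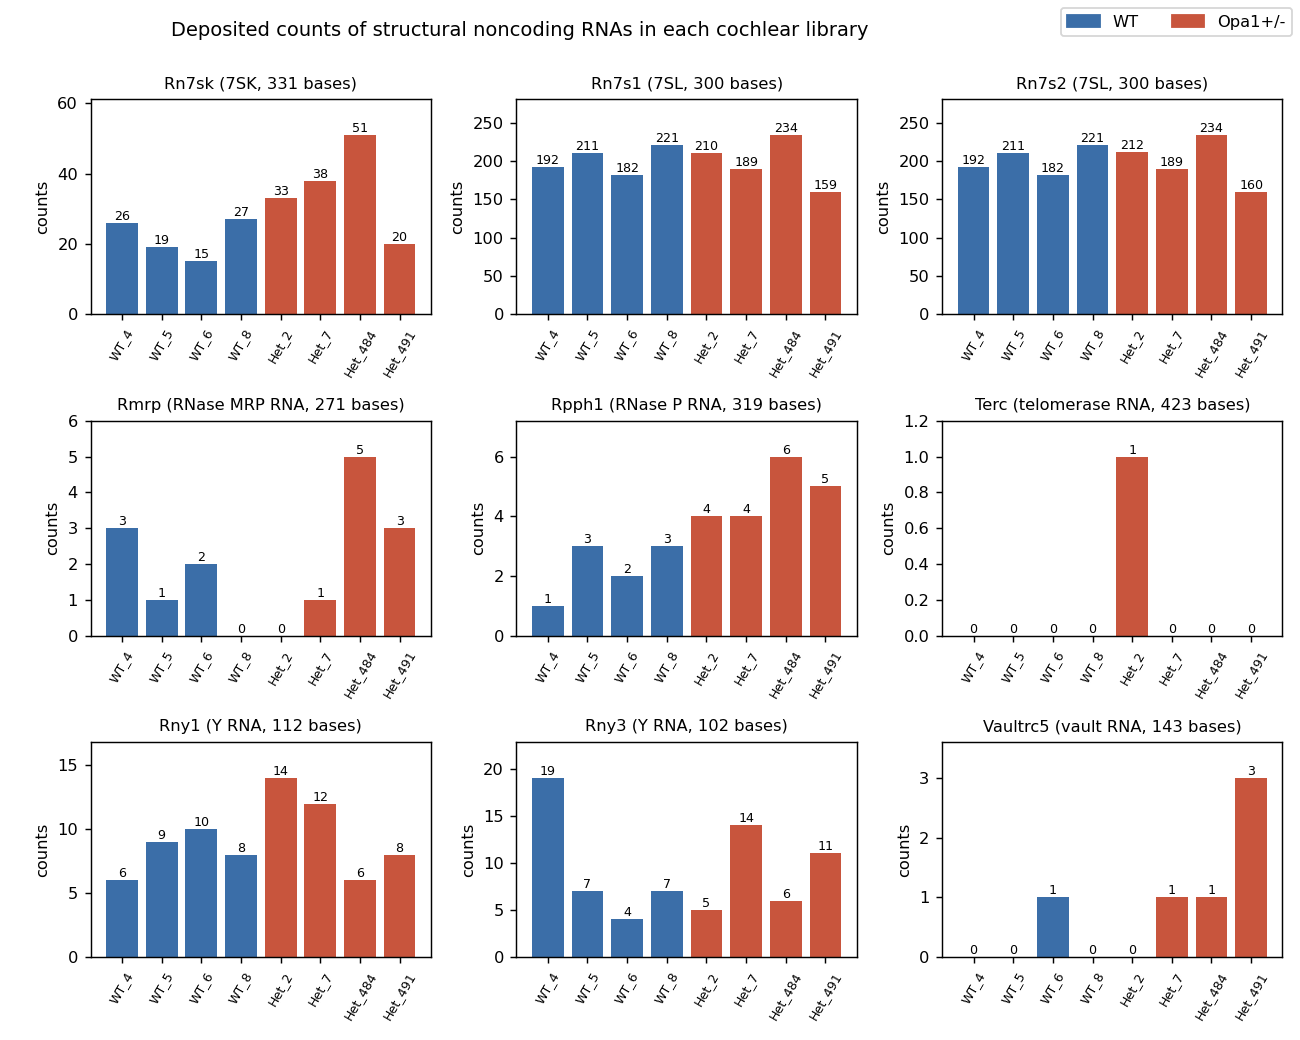
Deposited counts (vertical axes, starting at 0 and scaled for each RNA) in the 8 cochlear libraries (horizontal axes), blue for WT and red for Opa1+/-. Only Rpph1 has all 4 Opa1+/- libraries above all 4 WT libraries, with at most 6 counts in a library, and Rn7s1 and Rn7s2 differ by at most 2 counts in a library.

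None of the 3 tested RNAs passed an adjusted p of 0.05, at which edgeR's quasi-likelihood test called 5 of the 19366 genes (0.0258%). At an unadjusted p under 0.05, 1 of the 3 was higher in *Opa1*+/- mice, *Rn7sk*, against 3.51% of all genes tested. DESeq2 and limma voom also called none of the 3. At an unadjusted p under 0.05, each of them likewise found *Rn7sk* alone.

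*Rn7sk* counts were 26, 19, 15 and 27 in WT_4, WT_5, WT_6 and WT_8. In Het_2, Het_7, Het_484 and Het_491 they were 33, 38, 51 and 20. Het_484 was the highest library and Het_491 lay below WT_4 and WT_8, so the genotypes overlapped. The scaled levels were 1.16 ± 0.291 CPM in WT mice, against 2.07 ± 0.785 CPM in the *Opa1*+/- group (SD, n = 4). The log2 fold change was 0.84 (SE 0.3, 95% CI 0.16 to 1.51), which is 1.78-fold, with an edgeR adjusted p = 0.722 (unadjusted 0.0203). Without Het_484 it was 0.57 (edgeR adjusted p = 0.879). The spread between libraries of a genotype was 3.06 times the variance that counting alone gives.

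Counts of *Rn7sk* and of its copies cannot be fully told apart. Of the 252 stretches of 80 bases (1 read length) in 7SK RNA, 162 (64.3%) also occur in at least 1 of 3 annotated genes, *Gm24447*, *Gm26315* and *Gm26035*. These held 172, 115 and 28 counts over all libraries, beside 229 for *Rn7sk*. In all, 11 annotated genes aligned to 7SK RNA over at least 80 bases at 90% identity or more, and 10 of them held counts. Those beyond the 3 named share no exact stretch of 80 bases, and *Gm24146*, with 18 counts, held the most among them. *Gm24447*, which shares the 241 bases in capitals above, was at 0.954 ± 0.354 CPM in WT mice, against 1.46 ± 0.381 CPM in the *Opa1*+/- group (SD, n = 4; log2 fold change 0.61, SE 0.304, edgeR adjusted p = 0.758). *Gm26315* had a log2 fold change of 0.31 (SE 0.277, edgeR adjusted p = 0.844), and *Gm26035* was under the filter. With *Rn7sk* and the 3 genes that share such stretches summed, the libraries held 69, 52, 39 and 69 counts in WT. They held 78, 79, 107 and 51 in *Opa1*+/- mice, in the order given above. Het_491 again lay below WT_4 and WT_8, and the log2 fold change was 0.60 (SE 0.251, edgeR adjusted p = 0.728).

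**Figure D2:**
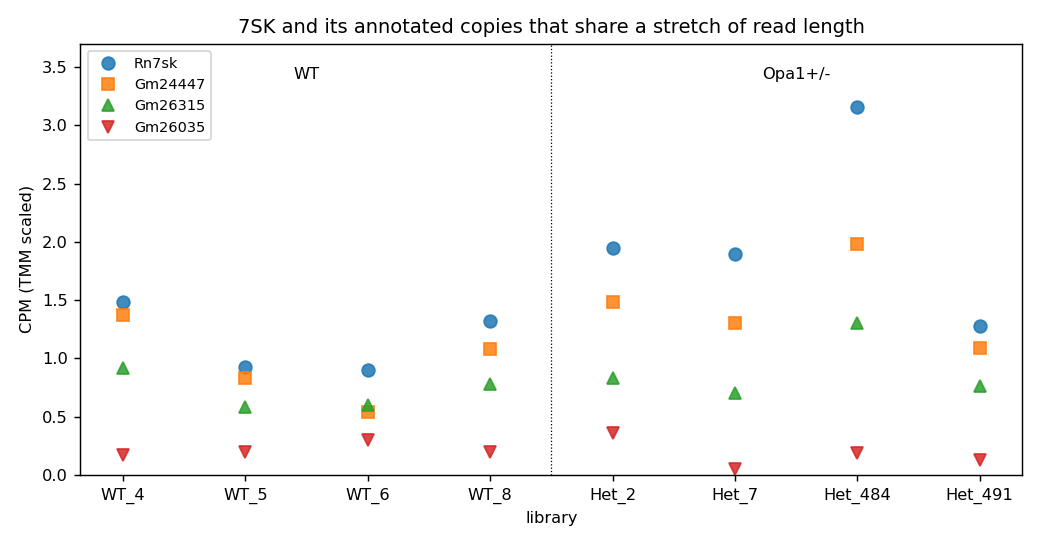
Level in CPM (vertical axis) of Rn7sk and of the 3 annotated genes that share a stretch of 80 bases with it, in each library (horizontal axis), WT left of the dotted line and Opa1+/- right of it. Rn7sk and Gm24447 are both highest in Het_484 and both lowest in WT_6.

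By the smallest root mean square difference of centred log2 CPM over the 8 libraries, the tested gene with the pattern most like that of *Rn7sk* was *Gm24447* (0.2), followed by *Psrc1* (0.238) and *9530085L11Rik* (0.253). These values compare libraries that share depth and scaling, and *Gm24447* shares sequence with *Rn7sk* as well. The gene next to *Rn7sk*, *C920006O11Rik*, lies 281 bases away. Its log2 fold change was -0.45 (lower at an unadjusted p under 0.05 and not called), the opposite sign to *Rn7sk*.

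*Rn7s1*, the first 7SL gene, had 192, 211, 182 and 221 counts in WT_4, WT_5, WT_6 and WT_8. In Het_2, Het_7, Het_484 and Het_491 it had 210, 189, 234 and 159. The 4 WT libraries lay close together, and the *Opa1*+/- libraries lay on both sides of them, Het_2 and Het_484 above all WT libraries and Het_7 and Het_491 below all of them once scaled to CPM. The means were 10.7 ± 0.296 CPM in WT mice, against 11.6 ± 2.28 CPM in the *Opa1*+/- group (SD, n = 4). The log2 fold change of 0.11 (SE 0.134, 95% CI -0.19 to 0.42, edgeR adjusted p = 0.893) did not pass the test. Without Het_484 it was -0.0052.

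*Rn7s2* cannot be read as a second measurement. Its counts equalled those of *Rn7s1* in 6 of 8 libraries and differed by at most 2 in the others, and the annotated transcripts of the pair are identical over their 300 bases. Its log2 fold change was 0.12 (SE 0.134, edgeR adjusted p = 0.886). How a read that matches both genes was counted is not given in the sources used here. *Rn7s6*, a further 7SL gene with near-identical stretches, was at 2.51 ± 0.254 CPM in WT mice, against 2.96 ± 0.642 CPM in the *Opa1*+/- group (SD, n = 4; log2 fold change 0.23, SE 0.188, edgeR adjusted p = 0.831). *Gm26461*, an annotated 7SL-like copy, had a log2 fold change of -0.05 (SE 0.189, edgeR adjusted p = 0.976). After *Rn7s2*, the genes with the pattern most like *Rn7s1* were *Hirip3* (0.047) and *Ccdc102a* (0.0779), on the measure used for *Rn7sk*.

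*Rpph1*, the RNA of RNase P, had 1, 3, 2 and 3 counts in WT and 4, 4, 6 and 5 in *Opa1*+/- libraries, in the same order. All 4 *Opa1*+/- libraries lay above all 4 WT libraries. Among the 2032 rows with 20 to 40 counts in all, 36 (1.77%) did so. *Rpph1*, with 28 counts in all, was 1 of the 9 RNAs and alone among them lay in that range. The share is therefore no background for the others. The levels were 0.117 ± 0.0423 CPM in WT mice, against 0.282 ± 0.0776 CPM in the *Opa1*+/- group (SD, n = 4), resting on 9 counts against 19. The counting intervals of single libraries overlap, from 0.00145 to 0.318 CPM for WT_4 and from 0.136 to 0.808 CPM for Het_484. In a fit over all rows with a count, the log2 fold change was 1.17 (SE 0.517, 95% CI 0.07 to 2.28, edgeR adjusted p = 0.753). *Rpph1* (chr14:50807449-50807767, minus strand) overlaps *Ccnb1ip1* on the same strand over 284 of its 319 bases, and transcripts of that gene hold 154 of its 240 stretches of 80 bases; *Ccnb1ip1* itself had 0 or 1 count in each library.

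*Rmrp*, the RNA of the related enzyme RNase MRP, had 3, 1, 2 and 0 counts in WT and 0, 1, 5 and 3 in *Opa1*+/- libraries. The genotypes overlapped, and a difference was not detectable at this depth (log2 fold change 0.67, 95% CI -1.32 to 2.66, in the fit over all rows). *Rmrp* (chr4:43492788-43493058, minus strand) overlaps *Ccdc107* on the opposite strand, and 45 of its 192 stretches of 80 bases lie in spliced transcripts of that gene. *Ccdc107* differed by 0.02 on the log2 scale (edgeR adjusted p = 0.975). The use of strand in the counting is not given, so reads of the overlap cannot be told apart. GENCODE vM21 also holds another entry with the symbol *Rmrp* (chr4:43492783-43493063, minus strand), which covers all bases of this one. How reads that lie in both entries were counted is not given in the sources used here, so the low counts may be incomplete.

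*Rny1* had 6, 9, 10 and 8 counts in WT and 14, 12, 6 and 8 in *Opa1*+/- libraries. *Rny3* had 19, 7, 4 and 7 in WT and 5, 14, 6 and 11 in *Opa1*+/- libraries. Both Y RNAs overlapped between genotypes, and the libraries that were highest for one were not highest for the other: WT_4 led for *Rny3* and tied for the lowest count of *Rny1*. The log2 fold changes in the fit over all rows were 0.39 (95% CI -0.39 to 1.16) for *Rny1* and 0.07 (95% CI -0.97 to 1.11) for *Rny3*, and both intervals include 0. WT_4 held 19 of the 37 WT counts of *Rny3*, so the value of 0.07 depends on that library. The fold change of *Rny3* without WT_4 was not tested. The spread within genotypes was 0.76 times the counting variance for *Rny1* and 3.51 times for *Rny3*.

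*Terc* (chr3:96414437-96414859, minus strand) had 1 count, in Het_2, and 0 in the other 7 libraries. A count of 0 allows a level of up to 0.146 CPM in the deepest of these libraries, WT_5, and up to 0.191 CPM in Het_491. *Tert*, the protein subunit of telomerase, was detected in each library and was at 1.38 ± 0.142 CPM in WT mice, against 1.63 ± 0.168 CPM in the *Opa1*+/- group (SD, n = 4; log2 fold change 0.25, edgeR adjusted p = 0.799). *Vaultrc5* had 1 count in WT, in WT_6, and 0, 1, 1 and 3 counts in *Opa1*+/- libraries. No fold is given for either RNA, since the counts are at the limit of detection.

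**Figure D3:**
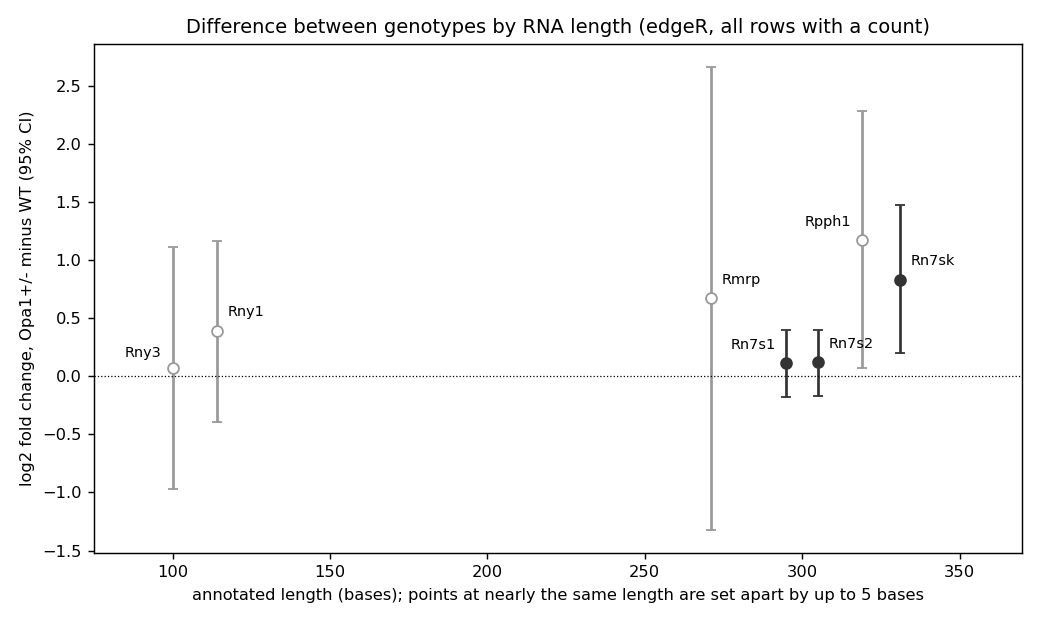
Log2 fold change between genotypes with its 95% CI (vertical axis) against annotated length in bases (horizontal axis) for the 7 RNAs with more than 1 count in each genotype, from edgeR over all rows with a count. Filled points passed the count filter, and the intervals of Rn7sk and Rpph1 alone lie above 0.

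Set in order of length, the point estimates from the fit over all rows were 0.07 for *Rny3* (102 bases), 0.39 for *Rny1* (112), 0.67 for *Rmrp* (271), 0.11 for *Rn7s1* (300), 1.17 for *Rpph1* (319) and 0.83 for *Rn7sk* (331). All were above 0, as were 9709 of the 19366 genes tested in the filtered fit, and the intervals overlapped one another. Some of these signs rest on 1 library. In the filtered fit *Rn7s1* was at -0.0052 without Het_484, and 5 of the 9 *Rmrp* counts in *Opa1*+/- mice came from Het_484. The signs of the RNAs under the filter were not tested with single libraries left out. *Rn7s2* is left out of this order as a repeat of *Rn7s1*, whose interval ran from -0.18 to 0.40.

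Other nuclear small RNA genes were set beside these by length, leaving out the 9 RNAs, ribosomal RNA and microRNA. Of 3458 such genes, 969 had a count and 22 passed the filter for testing. Many of the tested genes overlap an exon of another gene, whose reads cannot be told apart from theirs. Among these are the genes with the most counts in each class under 200 bases, *Gm24895*, *Gm27505* and *Gm27533*, named after their values were seen. Ratios without such genes are given at the end. The summed level was 16.1 ± 1.52 CPM in WT mice, against 24.7 ± 5.13 CPM in the *Opa1*+/- group for genes under 100 bases, a ratio of 1.54, and the genotypes did not overlap (exact two-sided permutation p = 0.0286, the smallest the design allows; 0.143 after adjustment over 5 classes). In the length range of the 9 RNAs the ratios were 1.09 for 100 to under 150 bases (exact permutation p = 0.543), 1.11 for 150 to under 200 (0.0857), 1.18 for 200 to under 300 (0.286) and 0.93 for 300 or more (0.429). All 4 of these classes overlapped between genotypes. The class of 300 bases or more holds the 7SK copies, but 58% of its counts came from *Gm27998*, a gene inside an exon of another gene, named here after its values were seen. Without *Gm27998* the ratio was 1.12 (exact permutation p = 0.314), above 1 rather than below. The class from 200 to under 300 bases holds *Rn7s6* and *Gm26461*, but 65.1% of its counts came from 4 U3 RNA genes (*Rnu3b1* to *Rnu3b4*), also named after their values were seen. Without these 4 the ratio was 1.01.

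**Figure D4:**
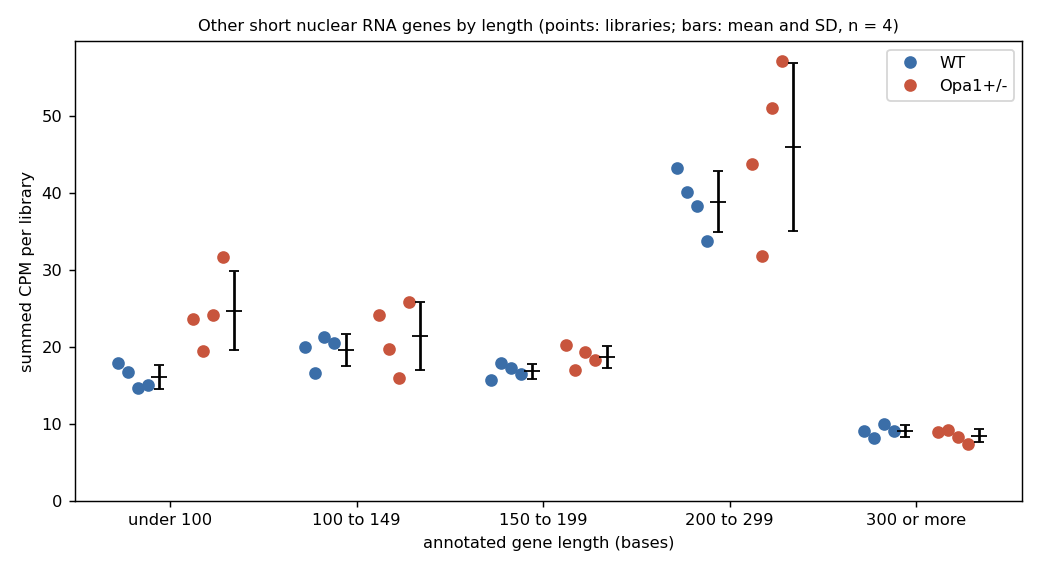
Summed CPM of other nuclear small RNA genes in each library (vertical axis) by annotated gene length in bases (horizontal axis), with the mean and SD of 4 libraries beside the points. The genotypes separate for genes under 100 bases and overlap in the 4 longer classes.

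The mRNAs of proteins that bind, transcribe or work with these RNAs were described from lists by particle. Of 74 such genes, 73 were listed and tested, and edgeR called none of them (0.0258% of all genes). At an unadjusted p under 0.05, 1 was higher and 7 were lower in *Opa1*+/- mice, against 3.51% and 3.22% of all genes. The median log2 fold change was 0.0082 over these genes and 0.000395 over all genes tested. DESeq2, limma voom and every left-out library also gave 0 calls among them.

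The 7SK particle had 7 genes with a median log2 fold change of -0.0155, which turned to 0.0258 without WT_6 and 0.0252 without Het_7. *Ccnt1*, a cyclin of P-TEFb, was at 54.9 ± 0.875 CPM in WT mice, against 50.6 ± 1.72 CPM in the *Opa1*+/- group (SD, n = 4, log2 fold change -0.12, edgeR adjusted p = 0.728). *Ccnt2*, also a cyclin of P-TEFb, differed by -0.08, and *Larp7*, which binds the 3′ end of 7SK RNA, by 0.05. *Cdk9*, the kinase of P-TEFb, differed by 0.03 and *Hexim1*, its inhibitor, by -0.03. The 9 measured genes of the signal recognition particle list lay between -0.0446 and 0.0479 on the log2 scale, around a median of -0.0206. Among these 9 are *Srpr* and *Srprb*, which encode the receptor of the particle and not a part of it. The 11 protein genes of RNase MRP and P had a median of 0.0882. Of the 11, 9 were above 0 without passing the test, beside 9709 of the 19366 genes tested. The median of the RNase MRP and P list was 0.156 without Het_2 and 0.052 without Het_491. The 8 telomerase genes had a median of 0.0452, with 0.0946 without Het_7 and 0.0253 without Het_2. *Trove2*, which encodes the Ro60 protein that binds Y RNAs, was at 65.5 ± 2.73 CPM in WT mice, against 58 ± 3.99 CPM in the *Opa1*+/- group (log2 fold change -0.18, edgeR adjusted p = 0.722). *Mvp*, the major vault protein, was at 43.2 ± 1.29 and 47.6 ± 3 CPM (log2 fold change 0.14, edgeR adjusted p = 0.728).

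Among 32 genes of RNA polymerase III transcription, 18 were above 0 and 14 below (9709 and 9657 of the 19366 genes tested), with a median log2 fold change of 0.0075. At an unadjusted p under 0.05, 5 were lower and 0 were higher (3.22% and 3.51% of all genes). *Pou2f1*, an activator of small nuclear RNA promoters, was at 28 ± 1.72 CPM in WT mice, against 23.8 ± 1.02 CPM in the *Opa1*+/- group (SD, n = 4; log2 fold change -0.23, SE 0.0652, edgeR adjusted p = 0.722). *Gtf3c4* and *Gtf3c3*, subunits of the factor TFIIIC, differed by -0.22 and -0.15, the polymerase subunit *Polr3f* by -0.17 and the TATA-binding protein *Tbp* by -0.15. In 6 of the 32, these 5 and *Snapc3*, all *Opa1*+/- libraries lay below all WT libraries, as in 452 (2.33%) of the genes tested. The count of 5 depended on the setting: it was 2 with DESeq2 and lay between 2 and 6 when single libraries were left out, with 2 without WT_4, WT_5, Het_2 or Het_484 and 3 without WT_8.

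**Figure D5:**
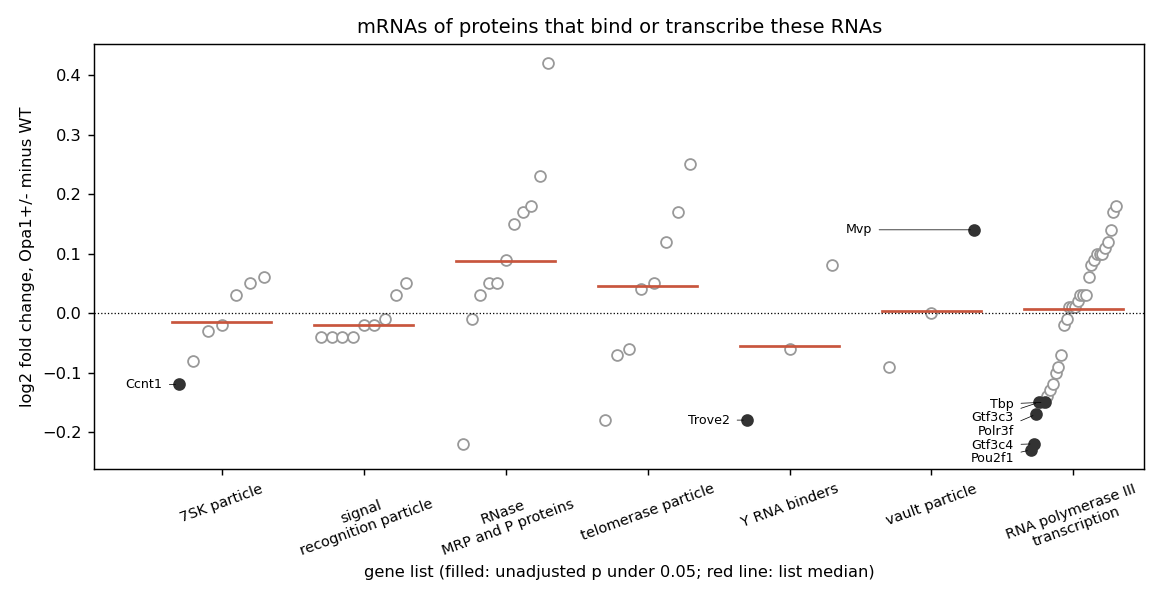
Log2 fold change between genotypes (vertical axis) of each measured gene in the lists of proteins that bind, transcribe or work with the RNAs (horizontal axis). Filled points have an unadjusted edgeR p under 0.05 and the red lines are list medians. The medians lie between -0.0558 and 0.0882, and no gene passed the adjusted threshold.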

How the data were processed

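RNA was extracted by the authors from cochleae of 4 WT and 4 *Opa1*+/- mice, with TRI Reagent or a RNeasy kit per the labels and with TRI Reagent followed by NucleoSpin columns per the methods, and which library had which is not given. How these treat RNAs of different lengths was not tested. CORALL libraries were sequenced as paired reads of 80 bases, processed with the CORALL analysis pipeline using molecular identifiers against amplification bias, and mapped with STAR to GRCm38, per the submitters' processing notes. The counting step of that pipeline, the use of strand and the treatment of reads with several matches are not given in the sources used here. The deposited values are raw counts per gene symbol, 1 table per mouse, and 15 rows that carry a number (0.112% to 0.124% of a library) were left out.

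Rows with a mean count over 10 after DESeq2 1.42.0 size factors (19366) were tested by edgeR 4.0.16 (TMM, quasi-likelihood, Benjamini-Hochberg over all of them, adjusted p under 0.05). RNAs under the filter were taken from the same test over all rows with a count. DESeq2 and limma 3.58.1 (voom) were alternatives, run in R 4.3.3. Confidence intervals of fold changes use the t quantile, with the standard error taken as the log2 fold change over the square root of F. Sums per library were compared by an exact permutation test over 70 arrangements. Counting intervals are exact 95% binomial (Clopper-Pearson) intervals and, like the limit of 3 counts for a count of 0, cover counting error only. Copies were found with blastn 2.17.0 in GENCODE vM21 transcripts. The 7SL sequences are not reported here.

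The RNAs and lists were chosen with earlier results of these data known. Named are all 9 RNAs, *Opa1*, up to 3 genes of each partner list by lowest p, copies, neighbours and the 3 genes of most like pattern. Genes outside this rule are named for their known role (*Cdk9*, *Hexim1*, *Srpr*, *Srprb*), for completing a count, or for their share of a class. The scripts were tested on simulated data.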

Additional observations from a re-analysis of the deposited data

Results flagged for a closer look

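Of 27 groups of 4 libraries examined for 1 library far from the others, 3 stood out. Chance flags about 1 in 20 groups of continuous values, but that rate does not hold for counts near 0. The groups of *Rn7s2* also repeat those of *Rn7s1*. *Rny3* was at 1.08 CPM in WT_4, while the other WT libraries lay between 0.239 and 0.343 CPM. *Terc* was at 0.0591 CPM in Het_2 and at 0 in the other *Opa1*+/- libraries. *Vaultrc5* was at 0.0597 CPM in WT_6 and at 0 in the other WT libraries. The values of *Terc* and *Vaultrc5* are single counts, and the rule always flags a single count beside libraries at 0.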

How the results depend on the processing

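No paired analysis was possible because the labels do not say which mice share a litter and give no replicate number to both genotypes. The 3 tested RNAs passed no adjusted threshold under any alternative, with adjusted p between 0.412 and 1 over the tests used. The log2 fold change of *Rn7sk* lay between 0.57 and 1. That of *Rn7s1* lay between -0.0052 and 0.2 when single libraries were left out, with -0.0052 without Het_484, and the cause was not tested. The number of genes called, 5, was 11 at an adjusted threshold of 0.1, 23 with DESeq2, 2 with limma voom, 10 with robust estimation, 12 without the filter, 0 without Het_484 and Het_491 together, and 0 to 9 when single libraries were left out. For genes under 100 bases the ratio was 1.39 to 1.65 when single libraries were left out (exact permutation p = 0.0571 without any 1 WT mouse) and 1.34 without Het_484 and Het_491 (exact permutation p = 0.0667, the smallest then possible). For 200 to under 300 bases it was 1.08 to 1.30 when single libraries were left out (exact permutation p = 0.0286 without Het_7) and 0.97 without Het_484 and Het_491. For 300 bases or more it was 1.0 without both, and, in alternatives chosen after seeing the data, 1.16 without genes that overlap an exon of another gene and 1.12 without *Gm27998*. Without genes that overlap an exon of another gene, the ratios of the shorter classes were 1.73, 1.09, 1.34 and 1.24 in order of length, so all 5 lay above 1, and only that of genes under 100 bases had an exact permutation p under 0.05 (0.0286, not adjusted). When single libraries were left out, the median log2 fold changes of the lists ranged from -0.043 to 0.0258 (7SK particle), -0.0354 to -0.00227 (signal recognition particle), 0.052 to 0.156 (RNase MRP and P), 0.0253 to 0.0946 (telomerase), -0.083 to -0.0154 (Y RNA binders), -0.0203 to 0.0328 (vault) and -0.0136 to 0.0146 (RNA polymerase III), so those of the 7SK, vault and RNA polymerase III lists changed sign. Depth limits the comparison: 6 of the 9 RNAs had too few counts to be tested in the filtered fit, and for these only large differences could have been seen.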
